A study of Saccharomyces cerevisiae with 12 samples.

Results

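Yeast cells make acetyl-CoA from pyruvate by more than one route. In the cytosolic route, pyruvate decarboxylases (the PDC genes) convert pyruvate to acetaldehyde, aldehyde dehydrogenases (the ALD genes) oxidise acetaldehyde to acetate, and acetyl-CoA synthetases (the ACS genes) join acetate to coenzyme A. Acetaldehyde that is not oxidised is reduced to ethanol by alcohol dehydrogenases, the main fate of pyruvate in fermenting cells, and the mitochondrial pyruvate dehydrogenase (PDH) complex makes acetyl-CoA without passing through acetaldehyde. The 10 genes described here were chosen by name as the 3 PDC genes PDC1, PDC5 and PDC6, the 5 ALD genes ALD2 to ALD6, and the 2 ACS genes ACS1 and ACS2 of Saccharomyces cerevisiae. All 10 were found among the 6825 identifiers of the expression table. No measured value entered the rule, but earlier results of these data were known when it was made. The 10 genes are called the members below.

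The table comes from RNA sequencing of polyA RNA in 12 samples, 3 in each of 4 groups, made to see how gene expression depends on EUC1 (YMR111C), which encodes a DNA-binding protein that resembles a transcription factor. WT cells (strain MH1047) were of DF5 background, mating type a, with an integrated YIplac211 plasmid that holds a MED11 copy and the URA3 marker, and were grown in YP with glucose to mid-log phase. The euc1∆ cells (MH1074) had the same genotype plus ymr111c::natNT2, which removes EUC1, and the same medium. The control cells (MH1134) were W303 of mating type a with RAD5 and also ymr111c::natNT2, and carried EUC1 behind its own promoter on an integrated YIplac211 plasmid (pEUC1-EUC1). The pGAL-EUC1 cells (MH1135) differed from the control in the promoter of that plasmid, which was the galactose-inducible pGAL. Both W303 strains were grown in YP with raffinose and then received 2% galactose for 3 h, and 1 strain stood for each group. The labels do not say whether the replicates were separate cultures, so the p-values measure only the spread between these samples.

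Values are TPM, which divides the reads of a gene by its length and scales all genes of a sample to a common total, so levels of different genes can be compared. The sums of the listed values ran from 973736 to 993435 per sample, TPM keeps no record of depth, and the number of reads behind a value is therefore unknown. EUC1 was at 9.56, 15.96 and 13.02 TPM in WT, at 0, 0 and 0.09 TPM in euc1∆, at 50.6, 30.8 and 31.6 TPM in the control and at 1985, 1942 and 2035 TPM in pGAL-EUC1 cells, as the labels have it. The 4 galactose genes GAL1, GAL2, GAL7 and GAL10 summed to between 11.3 and 17.5 TPM in the 6 glucose samples and to between 12956 and 14160 TPM in the 6 galactose samples. The 4 markers of mating type a (MFA1, MFA2, STE2, BAR1) summed to between 924.5 and 1583 TPM over the 12 samples, and the 3 markers of the other mating type, MF(ALPHA)1, MF(ALPHA)2 and STE3, to between 10.7 and 15.9 TPM in glucose and between 24.7 and 31.0 TPM in galactose.

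Paralogs with similar sequences can exchange reads when they are 75 bases long, so the coding sequences of the 10 genes were compared in the R64 genome of RefSeq. PDC1 (YLR044C) lies on chromosome XII from 232390 to 234081 on the minus strand, PDC5 (YLR134W) on the same chromosome from 410723 to 412414 on the plus strand, and PDC6 (YGR087C) on chromosome VII from 651290 to 652981 on the minus strand. Their coding sequences are 1692 bp long, and PDC5 shares 87.2% and PDC6 75% of its bases with PDC1. ALD4 (YOR374W) lies on chromosome XV from 1039840 to 1041399, ALD5 (YER073W) on chromosome V from 304030 to 305592 and ALD6 (YPL061W) on chromosome XVI from 432588 to 434090, all on the plus strand. ACS1 (YAL054C) lies on chromosome I from 42881 to 45022 and ACS2 (YLR153C) on chromosome XII from 445524 to 447575, both on the minus strand, with 62.9% of aligned bases the same. No annotated gene overlaps any of the 10 coding sequences, and no window of 75 bases in PDC1, PDC5, PDC6, ALD4, ALD5, ALD6, ACS1 or ACS2 occurs a second time in the genome.

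ALD2 (YMR170C) and ALD3 (YMR169C) stand apart in this respect. They are tandem genes on the minus strand of chromosome XIII, ALD2 from 601562 to 603082 and ALD3 from 599352 to 600872, with 689 bp between them, and 91.8% of their bases are the same. Of the 1447 windows of 75 bases in either gene, 433 (29.9%) occur in the other. The first 75 coding bases are shown because they are the same in both genes, so that a read of this length from here fits either, and the 60 coding bases from 1450 to 1509 because they differ most. Capitals mark the bases that differ between the pair.
ALD2 and ALD3, coding bases 1 to 75, minus strand, chrXIII:603008-603082 and chrXIII:600798-600872: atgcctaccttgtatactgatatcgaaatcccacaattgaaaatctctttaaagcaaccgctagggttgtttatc
ALD2, minus strand, chrXIII:601574-601633: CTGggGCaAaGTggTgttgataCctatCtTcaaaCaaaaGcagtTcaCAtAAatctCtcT
ALD3, minus strand, chrXIII:599364-599423: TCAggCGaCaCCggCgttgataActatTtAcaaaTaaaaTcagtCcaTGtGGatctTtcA
In this last stretch 21 of the 60 bases differ. The authors' program RSEM divides a read that fits several genes among them by estimation, so the values of ALD2 and ALD3 are less certain than those of the other 8 genes. Per-gene values of this pair were not checked on unshared windows, which needs the reads.

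No window of 75 bases is the same in PDC1 and PDC5, so an error-free read whole within either coding sequence fits that gene alone. Windows that differ by few bases were not counted, and whether PDC1 reads with mismatches were assigned to PDC5 was not tested. PDC1 was between 481.9 and 549.0 times higher than PDC5 in the WT samples, so a small part of PDC1 reads could alter PDC5. The most different 60 bases of the pair, coding positions 559 to 618, are shown because the pair was so unequal in level. Capitals mark the 19 bases that differ.
PDC1, minus strand, chrXII:233464-233523: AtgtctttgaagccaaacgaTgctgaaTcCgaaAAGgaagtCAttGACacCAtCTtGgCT
PDC5, plus strand, chrXII:411281-411340: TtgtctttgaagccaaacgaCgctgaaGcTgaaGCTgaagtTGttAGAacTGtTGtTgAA

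In WT the 10 genes lay between rank 12 and rank 6334 of the 6825 identifiers by mean TPM. PDC1, the main pyruvate decarboxylase of fermenting cells, led at 5943 ± 1073 TPM (SD, n = 3). PDC5, its close paralog, was at 11.4 ± 1.72 TPM (SD, n = 3), and PDC6, a minor isozyme best known from sulfur-limited cells, at 0.46 ± 0.08 TPM (SD, n = 3). In WT the order from high to low was PDC1, ALD6, ALD5, ACS2, ALD4, ALD2, PDC5, ALD3, ACS1 and PDC6. ALD2 (10.03 to 14.2 TPM) and PDC5 (10.3 to 13.4 TPM) were the neighbours in this order whose 3 samples overlapped, and the samples of every other pair of neighbours did not. The euc1∆ cells had the same order except that PDC5 (11.04 to 13.7 TPM) stood before ALD2 (10.4 to 12.3 TPM), again with overlap between this pair alone.

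The galactose cultures had another order. In the control it ran PDC1, ALD6, ALD4, ACS2, ALD5, ALD2, ACS1, ALD3, PDC5 and PDC6, and it was the same in pGAL-EUC1 cells. ALD3 and PDC5 were in both groups the neighbours that overlapped. ALD4, the mitochondrial acetaldehyde dehydrogenase of cells that respire, moved from the fifth place of the 10 to the third, and from rank 2780 to rank 371 of all identifiers by mean TPM. ACS1, the acetyl-CoA synthetase known to be repressed by glucose, passed PDC5 and ALD3. PDC1 went from rank 12 to rank 33.

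**Figure D1:**
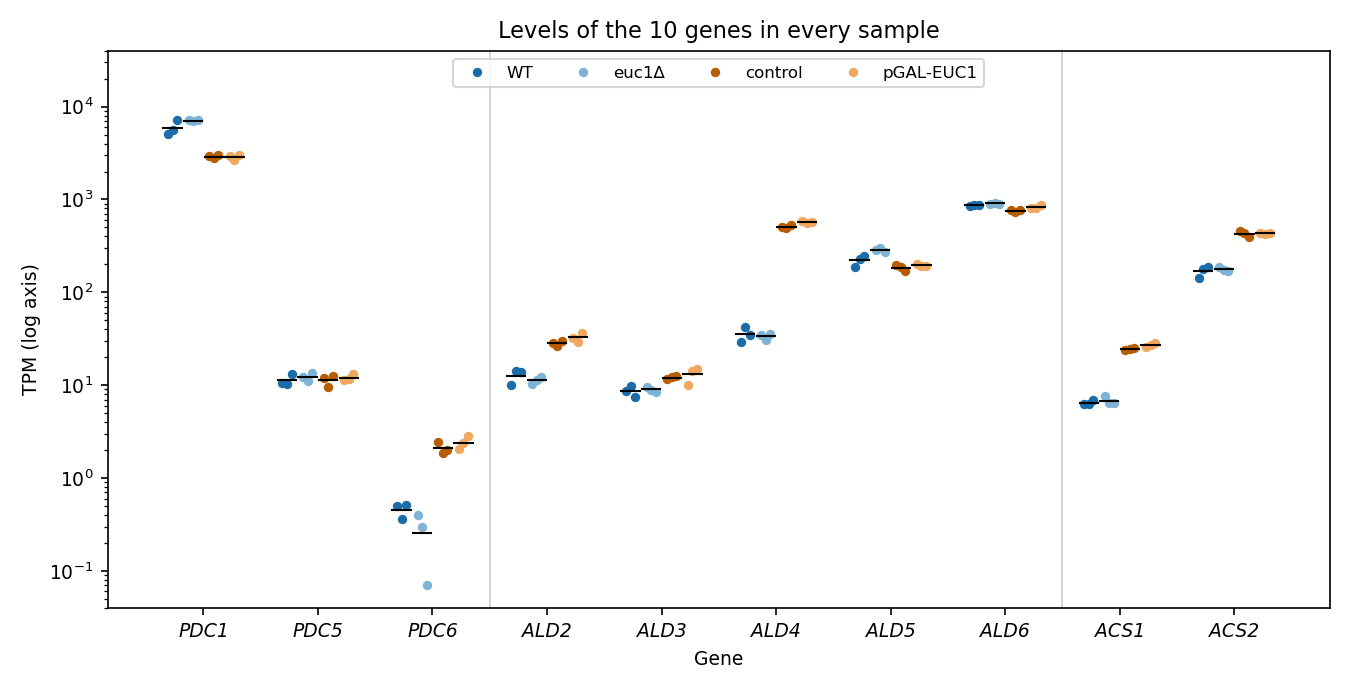
TPM of the 10 genes in each of the 12 samples on a log axis, with a point for each sample and a black line at the mean of each group of 3; colours give the groups, and grey lines divide the PDC, ALD and ACS genes. ALD4 is at 29.2 to 42.6 TPM in the 6 glucose samples and at 496.4 to 591.6 TPM in the 6 galactose samples, while PDC5 overlaps throughout, from 9.68 to 13.7 TPM.

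Within each enzyme family the shares of the isozymes were computed from summed TPM, as a description with no test. PDC1 made up 99.8% ± 0.02 (SD, n = 3) of the PDC sum in WT and 99.5% ± 0.04 (SD, n = 3) in the control. ACS2, the isozyme that cells need on glucose, made up 96.3% ± 0.40 (SD, n = 3) of the ACS sum in WT and 94.6% ± 0.48 (SD, n = 3) in the control, although ACS1 was 3.78 times higher in the control. The ALD family changed most in its make-up. ALD6, the main cytosolic acetaldehyde dehydrogenase, held 75.8% ± 2.25 (SD, n = 3) of the ALD sum in WT and 50.8% ± 0.28 (SD, n = 3) in the control. ALD4 held 3.08% ± 0.51 (SD, n = 3) in WT and 34.1% ± 0.65 (SD, n = 3) in the control.

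ALD5, a mitochondrial isozyme, had the second share of the ALD sum in glucose, with 19.3% ± 1.91 (SD, n = 3) in WT and 23.0% ± 0.81 (SD, n = 3) in euc1∆, and the third in galactose, with 12.3% ± 1.02 (SD, n = 3) in the control. ALD2 and ALD3, cytosolic isozymes that take part in the synthesis of beta-alanine and are induced under stress, together had small shares in every sample. ALD2 lay between 0.84 and 2.17% and ALD3 between 0.61 and 0.89%. The ratio of ALD4 to ALD6 was between 0.033 and 0.049 in the 6 glucose samples and between 0.662 and 0.724 in the 6 galactose samples. The ratio of ALD2 to ALD3 was between 1.10 and 1.84 in glucose and between 2.08 and 3.21 in galactose, values that rest in part on reads the pair shares.

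**Figure D2:**
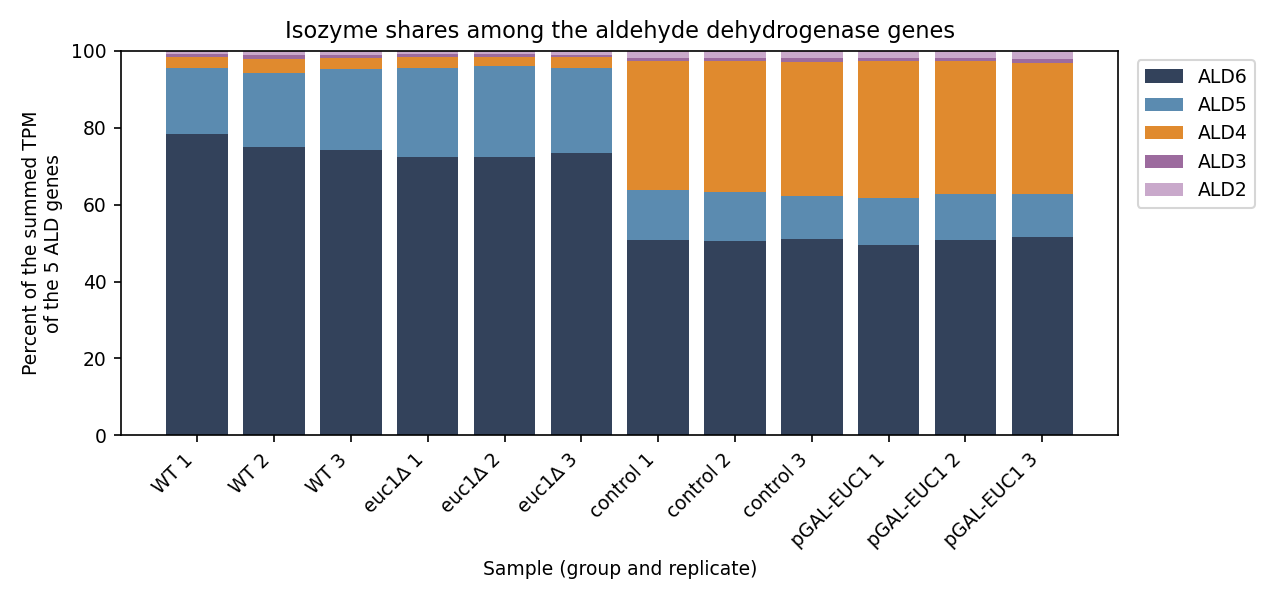
Stacked bars give each of the 5 ALD genes as a percent of their summed TPM, with a bar for each of the 12 samples, from 0 to 100%. The ALD4 part is between 2.40 and 3.64% in the 6 glucose samples and between 33.6 and 35.8% in the 6 galactose samples.

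The comparison of euc1∆ with WT asks what the loss of EUC1 does to expression in glucose. No member passed the test, and ALD5 was the member with the lowest p. ALD5 was at 189.2, 227.7 and 248.9 TPM in WT and at 289.1, 300.7 and 271.8 TPM in euc1∆, and the 2 groups did not overlap. Its log2 change, the difference of the group means of log2(TPM + 1), was 0.38 (SE 0.10, 95% interval 0.14 to 0.62, unadjusted p = 0.00671, limma adjusted p = 0.426). PDC1 was at 5051, 5644 and 7133 TPM in WT and at 7126, 6928 and 7100.1 TPM in euc1∆. The WT samples of PDC1 were spread widely and the highest of them lay above all euc1∆ samples, with a log2 change of 0.26 (SE 0.12, limma adjusted p = 0.658).

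ALD6 was at 859.4, 877.0 and 876.8 TPM in WT and at 903.0, 921.4 and 903.7 TPM in euc1∆. Its groups did not overlap either, but the difference was small, with a log2 change of 0.06 (95% interval -0.07 to 0.19, limma adjusted p = 0.872). The other 6 members tested had log2 changes between -0.14 for ALD2 and 0.11 for PDC5, and their groups overlapped. Their 95% intervals reached from -0.49 for ALD2 to 0.44 for PDC5. PDC6 was at 0.50, 0.36 and 0.51 TPM in WT and at 0.40, 0.30 and 0.07 TPM in euc1∆, below the mean of 1 TPM required for the test.

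These fits used limma on log2(TPM + 1), a scale that understates the change of low genes, and adjusted p-values over all genes whose mean reached 1 TPM by Benjamini-Hochberg. In this comparison 2 of 6217 genes (0.0322%) had an adjusted p under 0.1, EUC1 and the seripauperin gene PAU9, and 0 of 9 members. An unadjusted p under 0.01 was found for 1 of 9 members, ALD5, and for 1.93% of all genes, and an unadjusted p under 0.05 for 1 of 9 members and 7.54% of all genes. The groups did not overlap for 2 of 9 members, both higher in euc1∆, against 5.71% of all genes in that direction. The median log2 change was 0.06 over the 9 members and 0.01 over all genes. With all 12 samples in 1 fit, ALD5 passed the threshold (limma adjusted p = 0.0944), while its adjusted p ran up to 0.906 over the alternatives.

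Of 69 genes tested in 7 lists around the pathway, none passed the test in euc1∆, 0 had an unadjusted p under 0.01 and 8 had one under 0.05 (limma). The shares of all genes were 0.0322%, 1.93% and 7.54%. The lists are the PDH complex with its kinases, phosphatases and the pyruvate carriers, other enzymes at pyruvate, thiamine genes, other members of the aldehyde dehydrogenase superfamily, alcohol dehydrogenases, acetyl-CoA use and transport, and regulators. The lowest unadjusted p among the 12 PDH genes was that of MPC3, a mitochondrial pyruvate carrier subunit, whose mean was 9.62 TPM in WT (SD 0.63) but 6.45 TPM in euc1∆ (SD 1.62, n = 3 each, log2 change -0.53, limma adjusted p = 0.541). MPC3 passed with all 12 samples in 1 fit (-0.53, limma adjusted p = 0.0865). For the other lists these genes were PYC2, a pyruvate carboxylase, at a log2 change of 0.28, PHO3, a phosphatase that acts on thiamine phosphates, at 0.32, ADH1, the main alcohol dehydrogenase of fermentation, at 0.19, ACC1, acetyl-CoA carboxylase, at 0.17, and SNF1, the kinase that relieves glucose repression, at 0.13. In this comparison the log2 changes of 5675 genes correlated with log10 gene length at r = 0.337. A correction for gene length moved MPC3 to -0.42, ACC1 to 0.03, PYC2 to 0.18 and SNF1 to 0.10. It left PHO3 at 0.31 and ADH1 at 0.20. HFD1 (YMR110C), a fatty aldehyde dehydrogenase gene 411 bp from EUC1 on chromosome XIII, was at 25.1, 24.8 and 25.7 TPM in WT and at 31.5, 25.9 and 28.8 TPM in euc1∆, with a log2 change of 0.18 (limma adjusted p = 0.733).

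**Figure D3:**
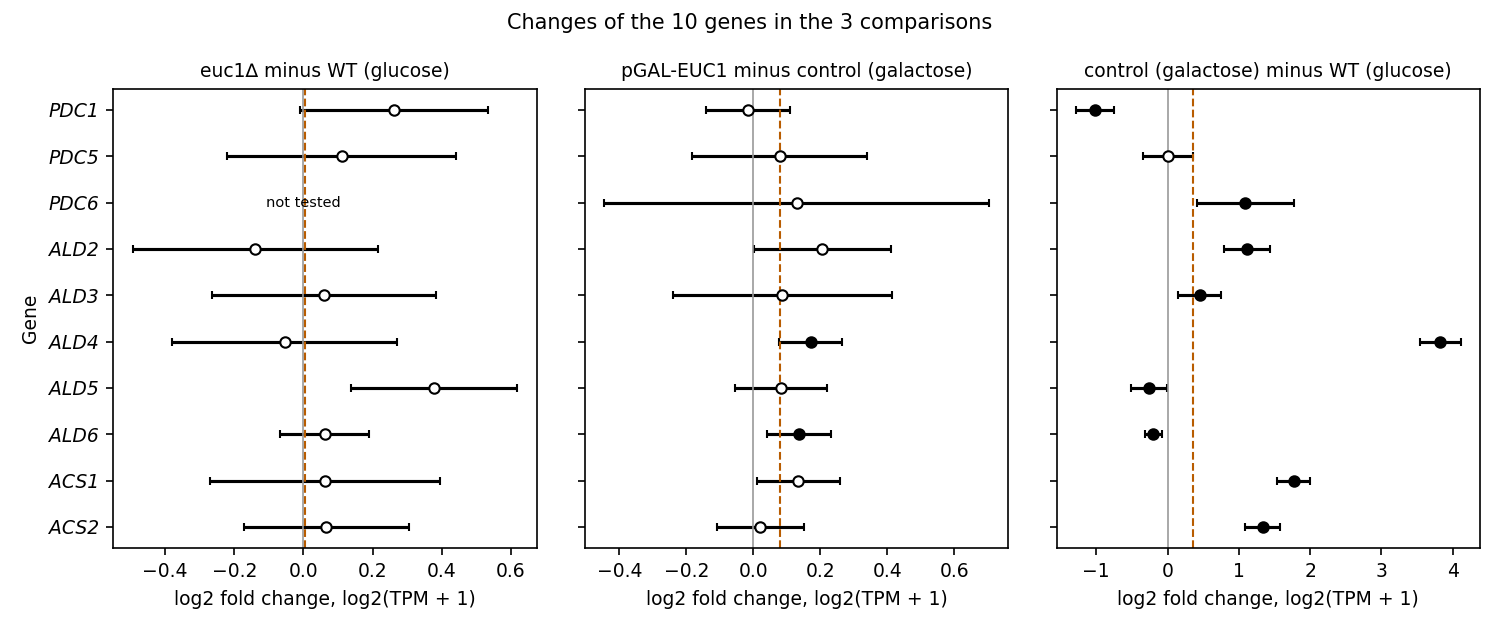
Log2 fold changes of the 10 genes on the log2(TPM + 1) scale with their 95% intervals, in the 3 comparisons from left to right; filled points have an adjusted p under 0.1, the grey line is at 0 and the dashed line at the median of all genes tested. The right panel has the wider axis, with ALD4 at 3.82 and PDC1 at -1.02.

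In galactose, pGAL-EUC1 cells were compared with the control to ask what a strong excess of EUC1 does. ALD4 and ALD6 rose by small amounts, and neither call was kept once the samples were rescaled by the median of ratios. ALD4 was at 506.8, 496.4 and 526.9 TPM in the control and at 591.6, 552.8 and 579.3 TPM in pGAL-EUC1 cells, without overlap. Its log2 change was 0.17 (SE 0.04, limma adjusted p = 0.0417). ALD6 was at 764.9, 739.5 and 772.8 TPM in the control and at 817.1, 812.1 and 875.3 TPM in pGAL-EUC1 cells, also without overlap, with a log2 change of 0.14 (SE 0.04, limma adjusted p = 0.0734).

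The acetyl-CoA synthetase ACS1 was at 24.1, 24.4 and 24.9 TPM in the control and at 25.8, 26.9 and 28.2 TPM in pGAL-EUC1 cells. Its groups did not overlap, and its log2 change of 0.13 did not pass the test (SE 0.05, limma adjusted p = 0.139). ALD2 was at 28.3, 26.4 and 30.2 TPM in the control and at 32.2, 29.5 and 36.9 TPM in pGAL-EUC1 cells, with overlap and a log2 change of 0.21 (SE 0.09, limma adjusted p = 0.16). ACS2 was at 455.7, 435.5 and 391.8 TPM in the control and at 435.4, 426.4 and 437.1 TPM in pGAL-EUC1 cells, all within the range of the control. PDC1 overlapped too, at 2909, 2773 and 3023 TPM in the control and 2926, 2671 and 3022 TPM in pGAL-EUC1 cells, with a log2 change of -0.02 (95% interval -0.14 to 0.11). PDC5, PDC6, ALD3 and ALD5 had log2 changes between 0.08 and 0.13, and their groups overlapped.

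The calls have to be read against those of all genes. In this comparison 1294 of 6332 genes (20.4%) passed the test, 1014 (16%) higher and 280 (4.42%) lower, and of the 10 members 2 passed, both higher. The groups did not overlap for 3 of 10 members, all higher, against 29.7% of all genes in that direction. The median log2 change was 0.11 over the 10 members and 0.08 over all genes. After rescaling by the median of ratios, 288 genes were called higher and 526 lower, and none of the 10 members passed, with ALD4 at a log2 change of 0.10 (limma adjusted p = 0.193) and ALD6 at 0.06 (limma adjusted p = 0.417). ALD4 also lost its call without control replicate 2 (adjusted p = 0.122), without pGAL-EUC1 replicate 1 (0.158) or without pGAL-EUC1 replicate 3 (0.109), and ALD6 without any replicate other than pGAL-EUC1 replicate 2, with adjusted p-values from 0.102 to 0.194 (limma).

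Of 71 genes in the 7 lists, 18 were called higher and 1 lower in pGAL-EUC1 cells, against 16% and 4.42% of all genes. These counts are from TPM before rescaling, and rescaled counts of the lists are not given for this comparison. ADH2, the alcohol dehydrogenase that oxidises ethanol and is repressed by glucose, rose from a mean of 145.8 TPM (SD 4.51) to one of 238.0 TPM (SD 16.8, n = 3 each), a log2 change of 0.70 (SE 0.06, limma adjusted p = 0.00124), and ADH3, its mitochondrial relative, had 0.13. Of the 6 other enzymes at pyruvate, ARO10, a decarboxylase of the Ehrlich pathway, rose from 122.1 ± 2.12 TPM to 157.1 ± 7.63 TPM (SD, n = 3, log2 change 0.36, limma adjusted p = 0.00642). PYK2, a second pyruvate kinase, had 0.23 and PYC1, a pyruvate carboxylase, 0.18. CDC19, the main pyruvate kinase, was the 1 listed gene called lower, from 2563 ± 62.0 TPM to 1905 ± 75.9 TPM (SD, n = 3, log2 change -0.43, limma adjusted p = 0.00214). After the rescaling ADH2, ARO10 and CDC19 kept their calls, and ADH3, PYK2 and PYC1 lost them.

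The counts of single lists that follow stand against 16% of all genes called higher. Of the 12 genes of the PDH list 4 were called higher, among them the kinases PKP1 (log2 change 0.28) and PKP2 (0.27), which inactivate the complex, and PDA1, its E1 alpha subunit (0.26). Of the 21 thiamine genes, which serve the cofactor of PDC and PDH enzymes, 3 were called higher, PHO3 at 0.35, THI21 at 0.27 and THI6 at 0.16. Of the 11 genes of acetyl-CoA use 4 were called higher, led by CAT2, a carnitine acetyltransferase, at 0.33, CIT3, a mitochondrial citrate and methylcitrate synthase, at 0.24, and ACH1, an acetyl-CoA hydrolase that also transfers CoA, at 0.22. MSN4, a stress-response activator, was the 1 of 12 regulators called, at 0.34. After the rescaling PKP2 (log2 change 0.20), THI21 (0.20), THI6 (0.09), CAT2 (0.26), CIT3 (0.17) and ACH1 (0.14) kept their direction but lost their calls, with limma adjusted p-values from 0.107 for CIT3 to 0.386 for THI6. HFD1 was the 1 of 4 other aldehyde dehydrogenase genes called, at 82.3, 86.8 and 89.9 TPM in the control and 99.4, 93.8 and 110.1 TPM in pGAL-EUC1 cells (log2 change 0.22, limma adjusted p = 0.0703), a call it lost after the rescaling (0.15, adjusted p = 0.231).

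The difference between the 2 EUC1 effects was tested in 1 fit of all 12 samples, with both effects coded as more EUC1 minus less EUC1. No member passed, at a threshold that 140 of 6325 genes (2.21%) passed, while 2 of 10 members had an unadjusted p under 0.01, against 5.74% of all genes, and the same 2 one under 0.05, against 15.7% of all genes (limma). These were ALD5, with a difference of 0.46 (SE 0.13, limma adjusted p = 0.125), and ALD6, with 0.20 (SE 0.06, limma adjusted p = 0.156). The median difference was 0.17 over the 10 members and 0.08 over all genes. ALD5 passed after rescaling by the median of ratios, at 0.37 (limma adjusted p = 0.083). The same rescaling moved ALD6 to 0.11, where its unadjusted p was 0.24 (limma adjusted p = 0.594). PDC1, ALD5 and ALD6 passed without WT replicate 3 (adjusted p = 0.0434, 0.0343 and 0.0939, limma).

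The comparison of the control with WT sets 2 cultures that express EUC1 from its own promoter side by side, raffinose with galactose against glucose. Strain background, EUC1 locus, plasmid (with a MED11 copy in WT), carbon source and experiment all differ between them and cannot be told apart. EUC1 itself was higher in the control than in WT (log2 change 1.47, limma adjusted p = 0.00062). In the control 6 of the 10 genes were called higher, ALD4, ACS1, ACS2, ALD2, PDC6 and ALD3, and 3 lower, PDC1, ALD5 and ALD6, where 71.1% of all genes were called. ALD4 rose from 29.2, 42.6 and 34.7 TPM in WT to 506.8, 496.4 and 526.9 TPM in the control, a ratio of means of 14.4 and a log2 change of 3.82 (SE 0.12, limma adjusted p = 9.05e-08). Every control sample was far above every WT sample.

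ACS1 was at 6.26, 6.28 and 6.88 TPM in WT and at 24.1, 24.4 and 24.9 TPM in the control, and rose by 1.77 on the log2 scale (SE 0.10, limma adjusted p = 1.74e-06). ACS2 was at 144.3, 177.7 and 187.0 TPM in WT and at 455.7, 435.5 and 391.8 TPM in the control, a log2 change of 1.33 (SE 0.11, limma adjusted p = 1.18e-05). Neither gene had overlapping groups, and the ratio of ACS2 to ACS1 was between 23.0 and 28.3 in WT and between 15.8 and 18.9 in the control. ALD2 was at 10.03, 14.2 and 13.8 TPM in WT and at 28.3, 26.4 and 30.2 TPM in the control (log2 change 1.11, SE 0.14, limma adjusted p = 0.000174). ALD3, its tandem neighbour, was at 8.61, 9.82 and 7.48 TPM in WT and at 11.6, 12.1 and 12.6 TPM in the control (log2 change 0.45, SE 0.13, limma adjusted p = 0.0159), a call that was lost after rescaling by the median of ratios (0.11, adjusted p = 0.49) and turned to -0.09 with a correction for gene length. PDC6 was at 0.50, 0.36 and 0.51 TPM in WT and at 2.43, 1.87 and 2.02 TPM in the control. This is a ratio of means of 4.61 at levels near the lower end of the table (log2 change 1.09, SE 0.30, limma adjusted p = 0.0117). The PDC6 call was lost with the length correction (0.55, adjusted p = 0.104). That correction also recentred the samples, and in this comparison log2 changes correlated with log10 gene length at r = -0.0509. The parts of length and of recentring in these moves were not tested.

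PDC1 fell from 5051, 5644 and 7133 TPM in WT to 2909, 2773 and 3023 TPM in the control, a log2 change of -1.02 (SE 0.12, limma adjusted p = 0.0001). It is the largest decrease among the 10 genes, and the summed TPM of the 3 PDC genes went from 5955 ± 1075 to 2915 ± 127 (SD, n = 3). ALD6 fell from 859.4, 877.0 and 876.8 TPM to 764.9, 739.5 and 772.8 TPM (log2 change -0.20, SE 0.05, limma adjusted p = 0.00836). ALD5 was at 189.2, 227.7 and 248.9 TPM in WT and at 197.0, 187.3 and 169.0 TPM in the control. Its groups overlapped, and its log2 change of -0.26 (SE 0.11, limma adjusted p = 0.0634) did not pass without WT replicate 2 (adjusted p = 0.145), WT replicate 3 (0.171), control replicate 2 (0.115) or control replicate 3 (0.191). PDC5 was at 10.5, 10.3 and 13.4 TPM in WT and at 11.9, 9.68 and 12.7 TPM in the control, with a log2 change of 0.01 (95% interval -0.34 to 0.35, limma adjusted p = 0.978), which rescaling by the median of ratios turned to -0.34, past the threshold (adjusted p = 0.0556).

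Most of the genome differed between these cultures. Of 6324 genes 4494 (71.1%) passed the test, 3654 (57.8%) higher and 840 (13.3%) lower, and of the 10 members 9 passed, 6 higher and 3 lower. Groups did not overlap for 8 of 10 members, against 71.6% of all genes. The median log2 change was 0.77 over the 10 members and 0.36 over all genes. After rescaling by the median of ratios 2202 genes were called higher and 2149 lower, and the log2 changes became 3.45 for ALD4, 1.43 for ACS1, 0.96 for ACS2, 0.76 for ALD2, 0.90 for PDC6, -1.40 for PDC1, -0.57 for ALD6 and -0.63 for ALD5, each still past the threshold.

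The neighbouring steps of the pathway differed as well. The 3 markers of the other mating type were also called higher in the control, MF(ALPHA)1 at a log2 change of 1.70, MF(ALPHA)2 at 0.56 and STE3 at 0.98, and their part in these results was not tested. Of the 71 listed genes 58 were called higher and 4 lower in the control, against 57.8% and 13.3% of all genes. Counts of listed genes called after rescaling by the median of ratios are not given here. All 11 genes of acetyl-CoA use and transport were higher, with a median log2 change of 2.18, led by CRC1, the mitochondrial carnitine carrier, at 3.23, CIT1, the mitochondrial citrate synthase, at 3.21 and CIT3 at 2.61. The lowest of the 11, ERG10, was at 0.37, near the median of all genes (0.36). All 4 other aldehyde dehydrogenase genes were higher, HFD1 at 1.74, PUT2 of proline breakdown at 1.58, UGA2 of GABA breakdown at 1.41 and MSC7 at 0.85. Of the 5 alcohol dehydrogenase genes ADH2 rose by 2.68 on the log2 scale, while ADH1 had a log2 change of -0.61 and ADH3 one of -0.29, which rescaling by the median of ratios moved to -0.98 and -0.66. ADH5 at 0.24 and ADH4 at 0.19 were also called higher, and both turned negative after the same rescaling (-0.13 and -0.18).

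The counts below stand against 57.8% of all genes called higher and 13.3% called lower. Of the 6 other enzymes at pyruvate, ARO10 (2.11), PYC1 (1.86) and PYK2 (1.26) led those called higher, and CDC19 was called lower (-0.45, and -0.82 after rescaling). Of the 12 genes of the PDH list 7 were called higher, led by MPC3 at 3.46, with a mean of 115.8 TPM in the control (SD 7.39, n = 3), and the kinases PKP2 at 1.33 and PKP1 at 1.29. Of the 21 thiamine genes 20 were called higher and PHO3 lower (-0.23, and -0.60 after rescaling). Among those called higher, THI80 (0.22), PDC2 (0.34) and THI20 (0.35) lay below the median of all genes (0.36). The highest were THI5 (2.94) and THI12 (2.85), members of a family of near-identical copies whose single values are uncertain, and SNO1 (2.34), a gene of vitamin B6 metabolism. Of the 12 regulators 8 were called higher, with HAP4, the activator subunit of respiratory genes, at 3.52, ADR1, an activator of ADH2, ACS1 and other genes repressed by glucose, at 3.35, and MSN4 at 1.94. No regulator was called lower, and 4 did not pass.

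**Figure D4:**
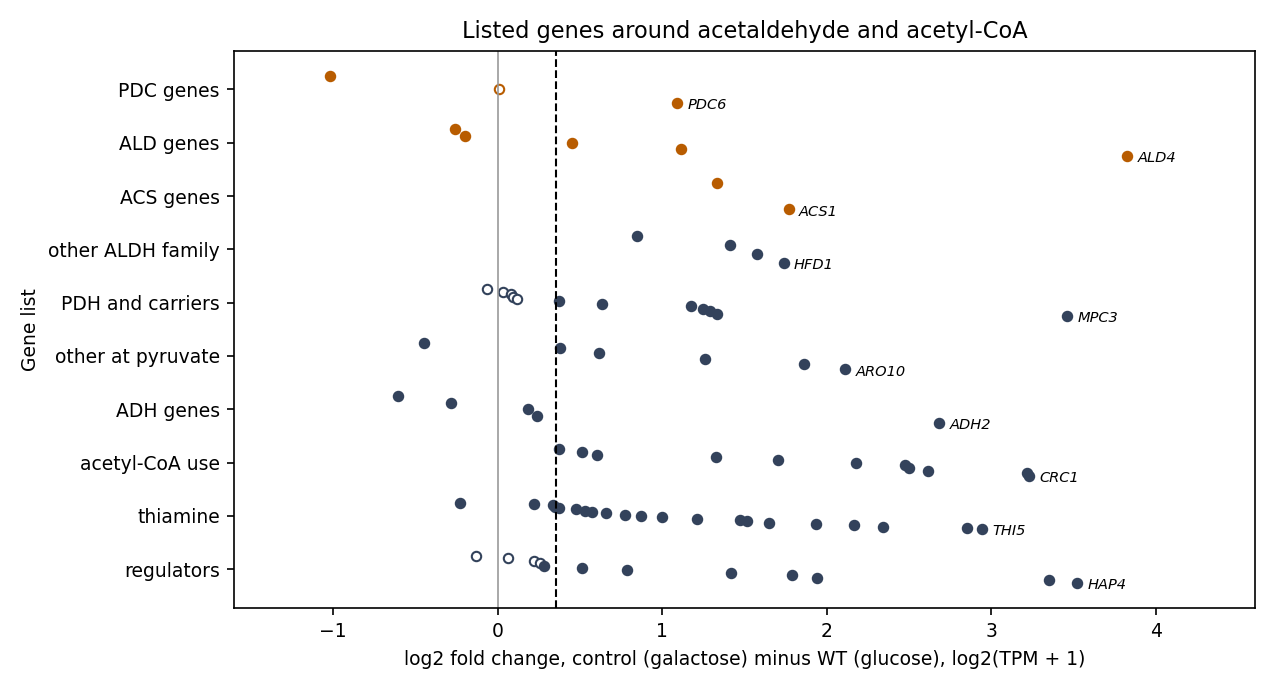
Log2 fold changes of the listed genes between the control in galactose and WT in glucose, with a point for each gene, the 10 described genes in orange and those of the 7 other lists in dark blue; filled points have an adjusted p under 0.1, the dashed line is the median of all genes (0.36), and the gene with the highest value of each list is named. All 11 genes of acetyl-CoA use lie above 0, and ALD4 at 3.82 is the highest point of the plot.

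The 500 bases before each annotated start were searched on both strands for 4 motifs. The core of the carbon source response element, CCNNNNNNCCG, which Cat8 and Sip4 are known to bind, occurred 3 times before ACS1, 2 times before ALD6 and not before the other 8 members. It occurs at least once before 20.83% and at least 2 times before 3.35% of 6000 genes searched. The sites are shown because ACS1 and ALD6, which both hold them, differed in direction between the control and WT. Capitals mark the match, written on the strand of the gene, and positions count back from the start codon.
ACS1, minus strand, chrI:45425-45459, match from -425: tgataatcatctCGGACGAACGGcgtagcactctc
ACS1, minus strand, chrI:45371-45405, match from -371: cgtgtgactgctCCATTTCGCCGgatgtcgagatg
ACS1, minus strand, chrI:45221-45255, match from -221: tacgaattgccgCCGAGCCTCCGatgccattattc
ALD6, plus strand, chrXVI:432092-432126, match from -484: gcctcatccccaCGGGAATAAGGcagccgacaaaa
ALD6, plus strand, chrXVI:432320-432354, match from -256: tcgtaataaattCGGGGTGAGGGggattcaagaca

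The stress response element AGGGG, which Msn2 and Msn4 bind, occurs at least once before 34.07% and at least 2 times before 8.13% of all genes. It was found 2 times before ALD3, ALD4 and ACS1, once before PDC1, PDC5, ALD5 and ALD6, and not before PDC6, ALD2 or ACS2. One of the ALD6 matches to the carbon source element overlaps its AGGGG. The letters CCCCGC or CCCCAC, a form of the site of the glucose repressor Mig1, occur before 13.55% of all genes and were found once before ALD4, PDC6 and ALD6, the last overlapping the other carbon source match of ALD6. The site of ALD4 is shown because this gene differed most of the 10 between the cultures.
ALD4, plus strand, chrXV:1039543-1039572, match from -285: gctggtatgattCCCCGCccgggcgacggt
CTTCC, the core that Gcr1 binds, was searched because Euc1 has a GCR1-type domain. It occurs at least once before 66.12% and at least 2 times before 30.02% of all genes. It was found 4 times before ALD3, 2 times before ALD4 and ALD5 and not before the other 7 members. None of these matches was tested for binding in these data.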

How the data were processed

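The authors enriched polyA RNA, sequenced single-end reads of 75 bp, aligned them with STAR 2.6.0a, using the transcripts of version 94 of the ENSEMBL annotation of R64-1-1, and calculated the deposited TPM values with RSEM 1.3.0; whether reads were assigned by strand is not given in the sources used here. TPM is relative to the summed expression of a sample, so a change of many genes shifts every other, and it keeps no depth. The authors tested counts with DESeq2; the counts were not used here, so limma replaced it. Sample names in the header stand 1 cell to the left of their values and were matched to the labels after this was set right, and 5903 of the 6825 identifiers matched a locus tag of RefSeq R64.

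For each comparison, its 6 samples entered limma 3.58.1 (R 4.3.3, lmFit, eBayes with trend, two-sided) as log2(TPM + 1), leaving out genes whose mean over them was under 1 TPM, with Benjamini-Hochberg adjustment over all genes and a threshold of adjusted p under 0.1. The difference of the EUC1 effects used all 12 samples. On simulated data with a log2 change of 1 in 200 genes, 197 were recovered in the layout of euc1∆ against WT with 15 false calls among 6217 genes. This simulation placed no change in the genes of lowest mean and drew its noise from a spread smoothed over genes. Smaller changes were not simulated, so it does not show how often changes as small as those of most members would be found. Other settings tried were pseudocounts of 0.1 and 5, the filter dropped or set at 10 TPM, rescaling to the median of ratios, 1 fit for all 12 samples, no trend in eBayes, a replicate block, leaving out each sample, shares from TPM + 1, and, added after the values had been seen, a correction for gene length. The length correction subtracted from each sample a smoothed curve over gene length together with its level, so it also recentred the samples. All members, EUC1 and HFD1 are named, and from each other list up to 3 called genes in each direction with the largest changes or, where none was called, the gene with the lowest p; PAU9 and MSC7 were named after their values were seen. Members and lists were chosen with earlier results of these data known. Tables and plots were made with pandas 2.3.3, numpy 2.4.6 and matplotlib 3.10.9 under Python 3.11.15.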

Additional observations from a re-analysis of the deposited data

Results flagged for a closer look

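The difference of the 2 EUC1 effects was (pGAL-EUC1 minus control) minus (WT minus euc1∆) on the log2(TPM + 1) scale. It passed the test for 4 of 71 listed genes outside the 10 described, against 2.21% of all genes (limma, all 12 samples). For PHO3 it was 0.67 (SE 0.11, adjusted p = 0.0201), and PHO3 was higher in euc1∆ (207 ± 6.27 TPM; SD, n = 3) than in WT (167 ± 21.8 TPM; SD, n = 3) and higher in pGAL-EUC1 cells (180.4 ± 5.24 TPM; SD, n = 3) than in the control (141 ± 7.52 TPM; SD, n = 3) in limma's fits with log2 fold changes of 0.32 and 0.35, of which the first did not pass its test. For ADH2 it was 0.75 (SE 0.15, adjusted p = 0.0421, limma), for ARO10 0.63 (SE 0.12, adjusted p = 0.0322, limma) and for PYC1 0.39 (SE 0.10, adjusted p = 0.0997, limma). PHO3 passed in all 19 alternatives, ARO10 in 16, ADH2 in 14 and PYC1 in 6.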

How the results depend on the processing

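TPM keeps no depth, each group has 3 samples of 1 strain, ALD2 and ALD3 share reads, and TPM does not show whether total mRNA per cell differed. Rescaling by the median of ratios moved the median log2 change of all genes from 0.08 to 0.007 in pGAL-EUC1 against the control and from 0.36 to -0.0007 in the control against WT.

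In euc1∆ against WT, 2 genes were called. This count was 1 at a pseudocount of 0.1 or 5 and with the replicate block, 0 at a mean of at least 10 TPM, 4 without a filter or with the median of ratios, 15 with the length correction, and 99 with all 12 samples in 1 fit, where 327 genes had an unadjusted p under 0.01 and 1 member, ALD5, was called, as was MPC3. Without each replicate in turn it was 1 to 3 (higher 0 to 1, lower 1 to 3), with 81 to 206 genes at an unadjusted p under 0.01 and 0 members called. The log2 changes turned sign in these fits for ACS2 (-0.046 to 0.14), ALD4 (-0.18 to 0.083), ALD3 (-0.029 to 0.15) and ACS1 (-0.0074 to 0.10). In pGAL-EUC1 against the control, 814 genes were called with the median of ratios and 163 with all 12 samples, where 369 had an unadjusted p under 0.01. Members called were 0 with either of these or the length correction, 1 without the trend in the prior variance, and 0 to 3 without each replicate, where 263 to 1081 genes were called (higher 164 to 804, lower 99 to 277, unadjusted p under 0.01 485 to 797). ACS2 turned to -0.054 with the median of ratios and -0.062 with the length correction, which turned PDC5 to -0.0065 and ALD5 to -0.0038. Without single replicates PDC5 lay between -0.026 and 0.15, PDC1 between -0.053 and 0.036, ACS2 between -0.041 and 0.068 and ALD3 between -0.017 and 0.25.

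In the control against WT, PDC5 turned to -0.34 and -0.53, ADH5 to -0.13 and -0.26 and ADH4 to -0.18 and -0.33 with the median of ratios and the length correction, and ALD3 to -0.090 with the latter. Without single replicates PDC5 lay between -0.069 and 0.12, and 8 to 9 members and 4048 to 4598 genes were called. For the difference of the 2 EUC1 effects, called in 140 genes, the count was 227 with the median of ratios, 36 with the replicate block (239 at an unadjusted p under 0.01) and 50 to 629 without each replicate (higher 21 to 463, lower 29 to 166, unadjusted p under 0.01 225 to 630). Members called were 1 without a filter (ALD6), 1 with the median of ratios (ALD5) and 0 to 3 without each replicate, the 3 being without WT replicate 3. EUC1 turned to -0.92 at a pseudocount of 0.1, PDC6 to 0.0042 at a pseudocount of 5, and ALD2 to -0.024 and ACS2 to -0.0057 with the median of ratios. Without single replicates ALD2 lay between -0.080 and 0.15, ALD4 between -0.013 and 0.25, ACS2 between -0.025 and 0.16 and PDC6 between -0.18 and 0.020. The causes of these changes were not tested.

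From TPM + 1 the PDC1 share was 99.77% in WT, 99.79% in euc1∆, 99.47% in the control and 99.43% in pGAL-EUC1 cells, and the ACS2 share 95.77% in WT and 95.79% in euc1∆. Deviations of samples with the same replicate number correlated at -0.11 to 0.08 in the glucose experiment and -0.11 to 0.19 in the galactose experiment. These values, from 3 such pairs in each experiment, cannot tell whether the numbers pair the samples. With the block, ALD2 in pGAL-EUC1 cells passed the test (adjusted p = 0.0694, limma), and no other member changed its call. Of the values of single genes under the alternatives, 244 in euc1∆ against WT kept direction and side of the threshold, 2 gained a call and 5 changed sign. In pGAL-EUC1 against the control 317 kept both, 91 lost a call, 2 gained one and 9 changed sign. In the control against WT 502 kept both, 24 lost a call and 11 changed sign, and for the difference of the effects 266 kept both, 21 lost a call, 7 gained one and 9 changed sign.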
